A study of Mus musculus with 24 samples.

Results

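The 10 genes described here encode the NF-kB subunits and a set of their inhibitors and regulators. They were taken by symbol from a list and matched by Ensembl identifier to the gene counts. All 10 were found among the 55414 gene lines, and all 10 were tested in every comparison. The list holds 3 canonical subunits (Nfkb1, Rel and Rela), 2 non-canonical subunits (Nfkb2 and Relb) and 5 inhibitors or regulators (Nfkbia, Nfkbib, Nfkbie, Bcl3 and Tnfaip3).

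NF-kB is a family of dimeric transcription factors that are held in the cytoplasm by inhibitor proteins until a receptor signals. In the canonical branch, the IKK complex marks IkB inhibitors such as those encoded by Nfkbia, Nfkbib and Nfkbie for degradation, which frees dimers of the products of Rela, Rel and Nfkb1. In the non-canonical branch, the kinase NIK accumulates once the TRAF2, TRAF3 and cIAP proteins no longer degrade it, and the precursor encoded by Nfkb2 is then processed to a subunit that pairs with RELB. Several of these genes, including Nfkbia, Nfkb2, Relb and Tnfaip3, are textbook targets of NF-kB itself. In dendritic cells, which present antigen to T cells, the family accompanies maturation.

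Messenger RNA was sequenced from mouse bone marrow-derived dendritic cells in 8 groups of 3 libraries. FL cultures, which received FLT3L (200 ng/ml) besides GM-CSF (20 ng/ml) and were used at day 16, were given AZD5582 at 0.05 µM or DMSO for 24 h, or were taken at the start (t0). GM cultures, which received GM-CSF alone at the same concentration and were taken at day 8, comprised t0, DMSO for 24 h and AZD5582 at 0.1, 0.5 and 1 µM for 24 h. AZD5582 belongs to the SMAC mimetics, compounds that bind inhibitor of apoptosis proteins and bring about loss of the cIAP proteins. All mice were C57BL/6JRj, wild-type or carrying Cas9-EGFP, and the labels do not assign a genotype to single libraries. FL libraries are numbered by culture (91, 94 and 95), whereas the GM libraries are 3 replicates under 1 culture number (105). Whether these GM replicates came from separate animals is not given, so that p-values measure the spread between these libraries, which may be partly technical.

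The libraries held 27.01 to 85.8 M gene counts (M, 1e6 counts), with a median of 51.7 M. The lowest count of any of the 10 genes in any library was 885. FL cultures at t0 had 105 to 383 CPM (gene counts scaled to a common library total) of Xcr1, a marker of type 1 conventional dendritic cells, against at most 0.165 CPM in GM cultures at t0. In FL cultures after 24 h, Xcr1 was at 1.67 to 2.76 CPM with AZD5582 and 7.76 to 26.4 CPM in DMSO. The sum of 9 markers of these cells went the other way in cultures 91, 94 and 95. It was 3758, 1654 and 2257 CPM with AZD5582 and 1698, 1066 and 1554 CPM in DMSO. Of the 9 markers, 3 were called lower and 0 higher with AZD5582. At t0 their sum was 3017 to 7072 CPM in FL cultures and 1387 to 1511 CPM in GM cultures. The dendritic cell marker Itgax was at 308 to 451 CPM in FL cultures at t0 and 1133 to 1161 CPM in GM cultures at t0. Of 8 general dendritic cell markers, however, 7 were called higher and 1 lower in FL than in GM cultures at t0. Their sum was 27121 to 33862 CPM in FL cultures and 18272 to 20056 CPM in GM cultures. Culture 91 stood apart after 24 h, with the highest level of all 10 genes among FL libraries in DMSO, so FL results are also given without it. In bulk samples like these, fewer cells of a type and less RNA per cell cannot be told apart.

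The start sites of the genes are shown first, because several members are known targets of the family. RefSeq windows of 300 bases (250 before to 50 after an annotated start, build GRCm38.p6, which differs from the GRCm39 of the counts) were found for 8 of the 10 genes, and not for Nfkb1 and Relb. A match to the kappaB consensus of 10 letters was sought on both strands, with overlapping matches merged. At least 1 window of Nfkb2, Rel, Nfkbia, Nfkbie, Bcl3 and Tnfaip3 held a match, and those of Rela and Nfkbib held none. Nfkb2 had windows 1 to 3, each with a match. Tnfaip3 had windows 1 and 2, of which window 2 held none. For both genes sequence is given from window 1 only. Of all 27025 genes with a window in the table, 5.14% had a match in at least 1 window, and 4.51% of the 32851 windows held one. A match is a run of letters and does not show that a factor binds there. The whole windows of Nfkb2 (chr19:46304487-46304786, plus strand), Nfkbia (chr12:55492598-55492897, minus strand) and Bcl3 (chr7:19822706-19823005, minus strand) are given because these genes are a non-canonical subunit, the inhibitor called with AZD5582 in both culture types and the member that was not called higher at any dose. Capitals mark the matched bases, and sequences run 5′ to 3′ on the strand of the gene.
Nfkb2: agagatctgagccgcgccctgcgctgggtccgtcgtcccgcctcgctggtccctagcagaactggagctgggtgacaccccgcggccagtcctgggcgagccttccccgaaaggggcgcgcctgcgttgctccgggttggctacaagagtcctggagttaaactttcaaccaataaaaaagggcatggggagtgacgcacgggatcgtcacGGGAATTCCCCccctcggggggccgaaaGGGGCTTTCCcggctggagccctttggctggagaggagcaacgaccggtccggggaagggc
Nfkbia: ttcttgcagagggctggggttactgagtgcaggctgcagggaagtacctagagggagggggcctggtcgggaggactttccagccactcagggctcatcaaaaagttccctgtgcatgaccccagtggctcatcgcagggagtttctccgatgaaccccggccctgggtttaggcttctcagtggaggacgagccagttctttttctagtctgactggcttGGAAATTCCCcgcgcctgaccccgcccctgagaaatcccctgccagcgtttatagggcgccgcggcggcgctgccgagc
Bcl3: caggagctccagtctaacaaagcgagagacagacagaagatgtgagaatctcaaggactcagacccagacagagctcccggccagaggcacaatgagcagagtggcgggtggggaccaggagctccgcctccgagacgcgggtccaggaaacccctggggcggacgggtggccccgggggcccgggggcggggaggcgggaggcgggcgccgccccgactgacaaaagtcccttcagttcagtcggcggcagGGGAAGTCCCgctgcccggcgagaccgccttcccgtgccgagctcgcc
For Rel, Nfkbie and Tnfaip3 the matched run is given with 10 bases on either side. The Rel run began 92 bases before the start, that of Nfkbie 106 bases before it, and those of Tnfaip3 125 and 12 bases before it.
Rel: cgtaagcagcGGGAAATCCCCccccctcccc
Nfkbie: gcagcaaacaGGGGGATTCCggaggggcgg
Tnfaip3, first: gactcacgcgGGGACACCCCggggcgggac
Tnfaip3, second: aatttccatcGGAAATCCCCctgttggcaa
The Nfkb2 window shown began its runs 39 and 11 bases before the start, the Nfkbia window 29 bases before it, and the Bcl3 window 3 bases into the transcript.

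The level of a gene can be set against another only per transcript length. Per kilobase, Nfkbia was the most abundant of the 10 in FL cultures with AZD5582 (794 ± 123 CPM per kb; SD, n = 3 here and below), in DMSO (256 ± 82.6) and at t0 (120 ± 11.2). In FL cultures in DMSO this order rested on close means, with Relb at 253 ± 178, and in culture 91 Relb lay above Nfkbia (455 and 352 CPM per kb). In GM cultures it was also first at t0 (65.5 ± 4.48 CPM per kb), in DMSO (269 ± 35.9) and at 0.1, 0.5 and 1 µM (640 ± 99.7, 806 ± 70.0 and 853 ± 82.3). Relb followed it in every group but GM t0, where the canonical subunits Nfkb1 (45.6 ± 3.48 CPM per kb) and Rela (32.7 ± 0.114) came before Relb (20.3 ± 1.53). At 1 µM in GM cultures Relb (249 ± 20.8) and Nfkb2 (242 ± 20.6) had close means. Nfkb2 lay above Relb there in replicates 1 (266 and 256) and 2 (228 and 225). Bcl3, an atypical IkB protein that acts in the nucleus with p50 or p52 dimers, was the least abundant in 7 of the 8 groups. The exception was GM cultures in DMSO, in which Rel lay at 32.1 ± 7.32 and Bcl3 at 36.1 ± 6.74 CPM per kb. At GM t0 the order rested on close means, with Bcl3 at 7.99 ± 0.190, Tnfaip3 at 8.08 ± 0.420 and Rel at 8.11 ± 0.189. In replicate 2 at GM t0 Bcl3 (8.16) lay above Tnfaip3 (7.65) and Rel (8.02).

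**Figure D1:**
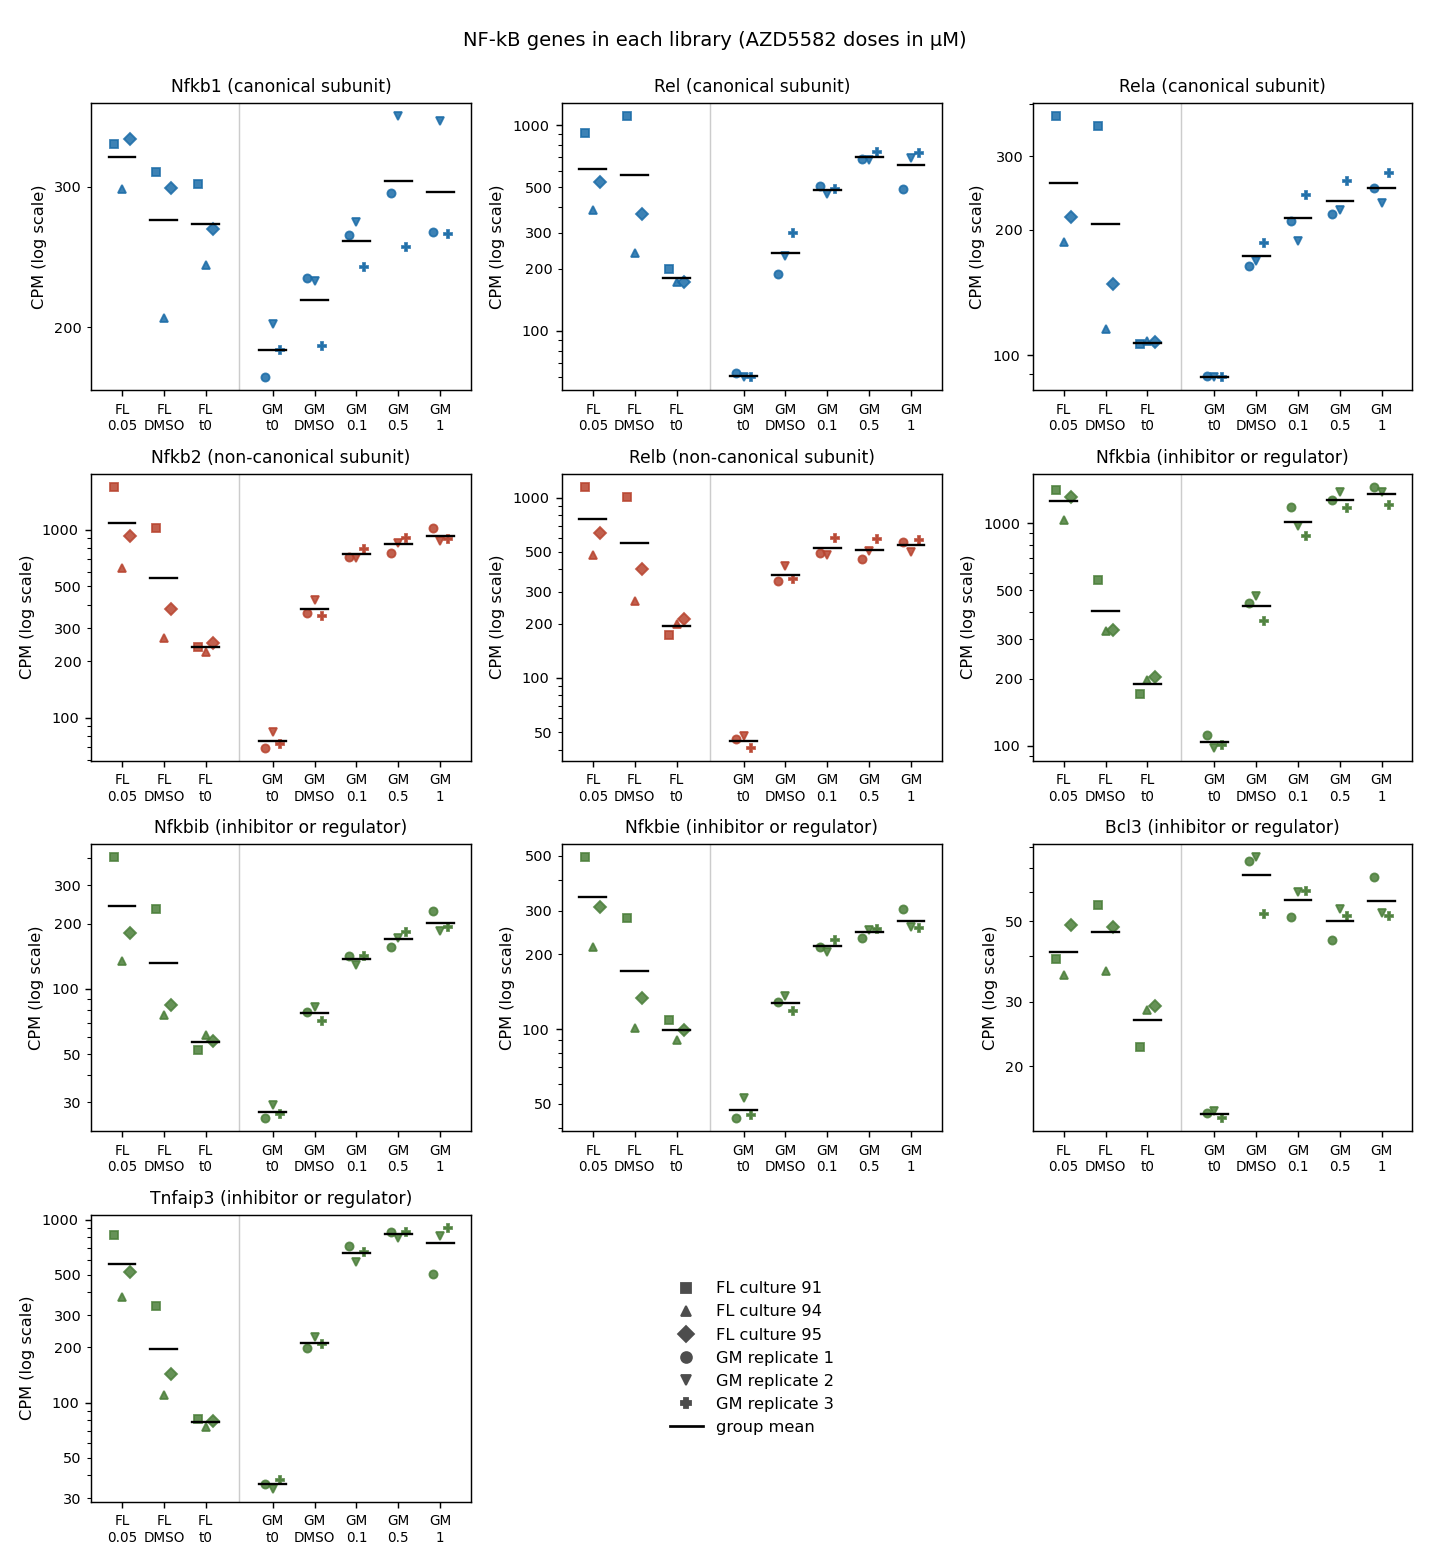
Level of each gene in each library, in CPM on a log scale whose range differs between panels, for 3 FL and 5 GM groups (x axis; AZD5582 doses in µM). Points are libraries, with 1 symbol per culture or replicate, and bars are means of 3; GM t0 has the lowest mean for all 10 genes, and culture 91 (squares) lies above cultures 94 and 95 in most panels after 24 h.

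In GM cultures every gene of the set but Nfkb1 was called higher after 24 h in DMSO than at t0. No group was kept for 24 h without DMSO or AZD5582, so solvent and time in culture cannot be told apart. Of the 10 genes, 9 were called higher and 0 lower, with groups that did not overlap for those 9. Of all 16152 genes tested, 27.2% were called higher and 20.3% lower, and 33.9% were higher without overlap. The median log2 change of the 10 genes was 2.00, against 0.09 over all genes. Adjusted p-values here and below come from edgeR (quasi-likelihood test, Benjamini-Hochberg over the whole table), with calls made under 0.05.

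Relb changed most in this comparison, with 347, 416 and 354 CPM in the 3 DMSO libraries and 45.7, 47.6 and 41.0 CPM at t0 (log2 change 3.05 ± 0.12, SE; adjusted p = 2.4e-12). Its partner Nfkb2 had 360, 426 and 349 CPM in DMSO and 69.4, 84.4 and 72.8 CPM at t0 (2.31 ± 0.12; adjusted p = 3.01e-11). Both non-canonical subunits were thus several-fold higher in every DMSO library than in any t0 library. Among canonical subunits, Rel, which encodes the c-Rel transactivating subunit, had 190, 232 and 298 CPM in DMSO and 62.2, 59.9 and 59.6 CPM at t0 (1.98 ± 0.15; adjusted p = 5.15e-09). Rela, which encodes the p65 subunit, had 163, 168 and 186 CPM in DMSO and 89.1, 88.6 and 88.5 CPM at t0 (0.95 ± 0.10; adjusted p = 4.66e-07). Nfkb1, which encodes the p105 precursor of p50, had 231, 229 and 190 CPM in DMSO and 173, 202 and 188 CPM at t0. Its groups overlapped and it was not called (0.20 ± 0.14; adjusted p = 0.272).

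The inhibitors moved in the same direction over these 24 h. Nfkbia, which encodes IkB-alpha, had 437, 473 and 362 CPM in DMSO and 111, 97.9 and 101 CPM at t0 (log2 change 2.03 ± 0.13; adjusted p = 1.07e-09). Tnfaip3, which encodes the ubiquitin-editing enzyme A20, had 199, 229 and 209 CPM in DMSO and 35.7, 33.8 and 37.6 CPM at t0 (2.56 ± 0.15; adjusted p = 2.78e-10). Bcl3 had 72.9, 74.9 and 52.4 CPM in DMSO and 14.9, 15.1 and 14.4 CPM at t0 (2.17 ± 0.14; adjusted p = 6.43e-10). Of these 3, Tnfaip3 had the largest log2 change and none of them overlapped between groups. Nfkbib and Nfkbie, which encode IkB-beta and IkB-epsilon, rose less, by 1.51 ± 0.10 and 1.43 ± 0.10 on the log2 scale (adjusted p = 1.87e-09 and 2.62e-09). Markers of other cells moved too: the summed level of 12 neutrophil markers was 440 to 692 CPM in DMSO and 307 to 365 CPM at t0, and that of 12 monocyte and macrophage markers was 28627 to 34740 CPM in DMSO and 19549 to 25002 CPM at t0. Their part in the result was not tested.

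AZD5582 raised the set further in GM cultures, with Bcl3 as the exception. At 0.1 µM 8 of the 10 genes were called higher and 0 lower, where 19.9% of all genes were called higher and 20.3% lower. At 0.5 µM 9 were higher and 1 lower, against 25.8% and 27.7% of all genes. At 1 µM 9 were higher and 0 lower, against 26.9% and 28.2% of all genes. The median log2 change of the set was 0.86, 1.13 and 1.31 at the 3 doses, and that of all genes -0.01, -0.03 and -0.01. The libraries of 9 genes did not overlap with DMSO at any of the 3 doses, Bcl3 being the gene that did. Of all genes 22.3%, 26.1% and 23.1% were higher than in DMSO without overlap at 0.1, 0.5 and 1 µM.

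Canonical subunits rose unequally. Rel had 507, 460 and 492 CPM at 0.1 µM, 684, 673 and 737 CPM at 0.5 µM and 487, 692 and 734 CPM at 1 µM, above the DMSO values given before. Its log2 changes over DMSO were 1.09 ± 0.14, 1.63 ± 0.15 and 1.51 ± 0.15 at the 3 doses (adjusted p = 7.89e-06, 3.3e-08 and 7.6e-08). At 1 µM replicate 1 was lower than the other two, and in this library 8.04% of gene counts were mitochondrial, against 3.20% to 4.90% in the other GM libraries after 24 h. Rela had 188 to 242 CPM at 0.1 µM, 218 to 261 CPM at 0.5 µM and 231 to 274 CPM at 1 µM, and rose by 0.37 ± 0.10, 0.53 ± 0.10 and 0.66 ± 0.10. With all 24 libraries in one model its calls were lost (adjusted p = 0.494, 0.244 and 0.138). Nfkb1 had 261, 271 and 238 CPM at 0.1 µM, where it was not called (0.32 ± 0.14; adjusted p = 0.0816), although it was with the compared groups alone (0.32 ± 0.10; adjusted p = 0.0204). Replicate 2 stood above the others for Nfkb1 at 0.5 µM (295, 368 and 252 CPM) and at 1 µM (263, 363 and 262 CPM). At these doses Nfkb1 rose by 0.59 ± 0.14 and 0.56 ± 0.14 (adjusted p = 0.00176 and 0.00255).

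Both non-canonical subunits rose at every dose, Nfkb2 by more than Relb. Nfkb2 had 719, 706 and 795 CPM at 0.1 µM, 756, 855 and 908 CPM at 0.5 µM and 1022, 876 and 895 CPM at 1 µM. Its log2 changes were 1.04 ± 0.11, 1.24 ± 0.11 and 1.41 ± 0.11 (adjusted p = 7.5e-07, 3.91e-08 and 7.37e-09). Relb had 495, 480 and 596 CPM at 0.1 µM, 454, 505 and 588 CPM at 0.5 µM and 565, 498 and 586 CPM at 1 µM. The Relb groups overlapped one another across doses, and all lay above DMSO. Its log2 changes were 0.56 ± 0.11, 0.56 ± 0.11 and 0.67 ± 0.11 (adjusted p = 0.000696, 0.000454 and 7.72e-05). With all 24 libraries in one model they were 0.49 ± 0.33, 0.47 ± 0.33 and 0.56 ± 0.33 and none was called (adjusted p = 0.320, 0.284 and 0.192).

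Among inhibitors and regulators, Tnfaip3 and Nfkbia had the largest changes. Nfkbia had 1183, 971 and 876 CPM at 0.1 µM, 1267, 1386 and 1165 CPM at 0.5 µM and 1459, 1377 and 1204 CPM at 1 µM. This gave log2 changes over DMSO of 1.32 ± 0.13, 1.68 ± 0.13 and 1.78 ± 0.13 (adjusted p = 2.8e-07, 7.05e-09 and 3.09e-09). Tnfaip3 had 713, 584 and 661 CPM at 0.1 µM, 852, 795 and 856 CPM at 0.5 µM and 503, 813 and 902 CPM at 1 µM. As for Rel, replicate 1 at 1 µM was the lowest of its group. The log2 changes of Tnfaip3 were 1.69 ± 0.15, 2.07 ± 0.15 and 1.90 ± 0.15 (adjusted p = 6.83e-08, 2.51e-09 and 5.65e-09). Nfkbib had 128 to 142 CPM at 0.1 µM, 156 to 183 CPM at 0.5 µM and 184 to 228 CPM at 1 µM, with log2 changes of 0.90 ± 0.10, 1.23 ± 0.10 and 1.49 ± 0.10. Nfkbie had 205 to 228 CPM, 233 to 252 CPM and 257 to 305 CPM at these doses, with log2 changes of 0.82 ± 0.10, 1.04 ± 0.10 and 1.21 ± 0.10. For both genes the 3 dose groups did not overlap one another. Neither was called from 0.5 to 1 µM (adjusted p = 0.827 for both). Replicate 1 at 1 µM, with 8.04% mitochondrial counts, was the highest of its group for both. In replicates 2 and 3 at 1 µM Nfkbie had 257 and 257 CPM, beside at most 252 CPM at 0.5 µM. The share of all genes without overlap between doses was not counted.

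Bcl3 did not follow the other inhibitors. It had 51.3, 60.2 and 60.4 CPM at 0.1 µM, 44.5, 54.2 and 51.6 CPM at 0.5 µM and 66.0, 52.5 and 51.6 CPM at 1 µM, beside 72.9, 74.9 and 52.4 CPM in DMSO. At every dose it overlapped with DMSO. Its log2 change was -0.32 ± 0.13 at 0.5 µM, where it was called with an adjusted p of 0.0487, and -0.15 ± 0.13 and -0.13 ± 0.13 at 0.1 and 1 µM (adjusted p = 0.393 and 0.444). The call at 0.5 µM was lost in 13 of 22 alternative settings, with adjusted p-values between 0.00382 and 0.209.

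**Figure D2:**
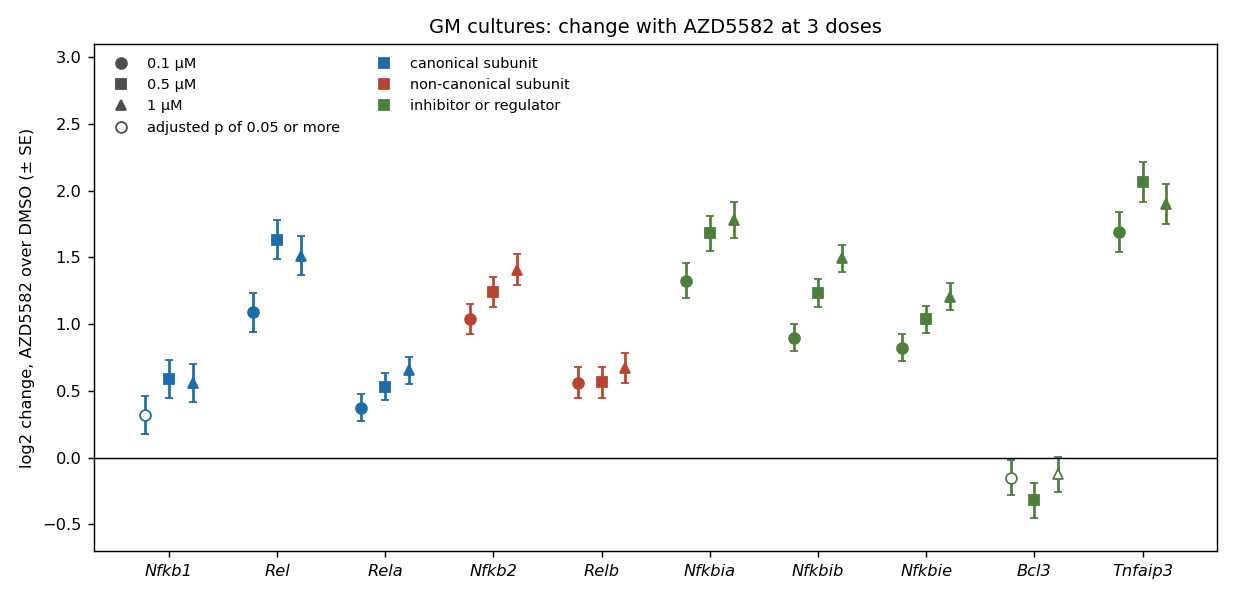
Log2 change (y axis, ± SE from the fit of all 15 GM libraries) of each gene (x axis) at 0.1, 0.5 and 1 µM AZD5582 over DMSO, coloured by class, with open symbols for an adjusted p of 0.05 or more. Tnfaip3 has the largest changes (1.69, 2.07 and 1.90), and Bcl3 lies below 0 at all 3 doses, past the threshold at 0.5 µM.

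Between doses the set changed little. From 0.1 to 0.5 µM, 2 of the 10 genes were called higher and 0 lower, where 2.98% of all genes were called higher and 8.47% lower. These were Rel (log2 change 0.54 ± 0.14; adjusted p = 0.0179) and Nfkbib (0.33 ± 0.10; adjusted p = 0.0403). Neither call held without replicate 2 or 3 at 0.1 µM or without replicate 3 at 0.5 µM. From 0.5 to 1 µM, edgeR called 0 of the 10 genes and 0% of all genes, with 1 of the 10 and 870 genes in all at an unadjusted p under 0.05. DESeq2 called 0 of the 10 and 11 genes in all. The median log2 change of the set was 0.24 for the first step and 0.12 for the second, against 0.00 and -0.01 over all genes.

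While the set rose with AZD5582, the summed level of 12 monocyte and macrophage markers fell to 11807 to 12687 CPM at 0.1 µM, 6078 to 6712 CPM at 0.5 µM and 4088 to 5294 CPM at 1 µM, and all 12 of these markers were called lower at 1 µM. Of 12 neutrophil markers 11 were called lower at 1 µM, with sums of 27.3 to 35.8, 8.59 to 12.4 and 8.19 to 16.5 CPM at the 3 doses and Elane at 0 in all libraries of the highest. All 7 tested B cell markers were called higher at 1 µM, with a sum over 8 markers of 70.4 to 80.9 CPM against 54.1 to 55.6 CPM in DMSO. Of 6 plasmacytoid dendritic cell markers 4 were called higher and 2 lower, with sums of 653 to 769 CPM at 1 µM and 322 to 422 CPM in DMSO. Of 8 general dendritic cell markers 2 were called higher and 6 lower, with sums of 11024 to 14988 CPM at 1 µM and 17763 to 22618 CPM in DMSO. All 7 stromal markers were called lower. The part of these shifts in the results for NF-kB genes was not tested.

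Ratios within a library do not depend on scaling between libraries, and they are given as descriptions without a test. In GM cultures Nfkb2 over Nfkb1 (CPM over CPM) averaged 0.402 ± 0.0149 at t0, 1.76 ± 0.168 in DMSO and 2.90 ± 0.390, 2.83 ± 0.681 and 3.24 ± 0.750 at 0.1, 0.5 and 1 µM. All 9 libraries with AZD5582 lay above all 3 in DMSO. In FL cultures this ratio was 3.26 ± 1.53 with AZD5582, 1.94 ± 1.15 in DMSO and 0.887 ± 0.0855 at t0, and the AZD5582 and DMSO libraries overlapped. Within cultures 91, 94 and 95 it was higher with AZD5582 each time, at 4.99, 2.11 and 2.69 against 3.27, 1.29 and 1.28 in DMSO.

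Relb over Rela averaged 0.504 ± 0.0377 at t0, 2.16 ± 0.285 in DMSO and 2.46 ± 0.0980, 2.20 ± 0.104 and 2.18 ± 0.0600 at the 3 doses in GM cultures, and AZD5582 and DMSO libraries overlapped. In cultures 91, 94 and 95 it was 3.08, 2.58 and 2.99 with AZD5582, against 2.84, 2.32 and 2.71 in DMSO and 1.64, 1.86 and 1.96 at t0. It was thus higher with AZD5582 than in DMSO in each FL culture, while the groups overlapped. The sum of the 2 non-canonical subunits over the sum of the 3 canonical ones averaged 0.357 ± 0.0189 at t0, 1.20 ± 0.148 in DMSO and 1.32 ± 0.0988, 1.09 ± 0.0944 and 1.27 ± 0.275 at the 3 doses in GM cultures. The large shift in this balance was thus between t0 and DMSO, and the dose groups overlapped with DMSO. In FL cultures the same ratio averaged 1.49 ± 0.238 with AZD5582, 1.02 ± 0.110 in DMSO and 0.779 ± 0.0888 at t0, with no overlap between these 3 groups.

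Summed inhibitors over summed subunits separated AZD5582 from DMSO in both culture types. In FL cultures the ratio averaged 0.837 ± 0.111 with AZD5582, 0.481 ± 0.106 in DMSO and 0.457 ± 0.0273 at t0. In GM cultures it averaged 0.499 ± 0.0257 at t0, 0.659 ± 0.0613 in DMSO and 0.936 ± 0.109, 0.995 ± 0.0751 and 0.982 ± 0.0314 at 0.1, 0.5 and 1 µM. Every AZD5582 library lay above every DMSO library of its culture type. These are sums of CPM, in which the genes with most counts weigh most. At 1 µM in GM cultures Nfkbia and Tnfaip3 averaged 1347 and 740 CPM, against 273, 202 and 56.7 CPM for Nfkbie, Nfkbib and Bcl3. A further ratio, Nfkb2 over Relb, was chosen after its values were seen. It lay between 1.31 and 1.81 in the 12 AZD5582 libraries of both culture types and between 0.951 and 1.04 in the 6 DMSO libraries. At t0 it lay between 1.12 and 1.37 in FL cultures and between 1.52 and 1.78 in GM cultures, so that the DMSO libraries were the lowest of each culture type.

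**Figure D3:**
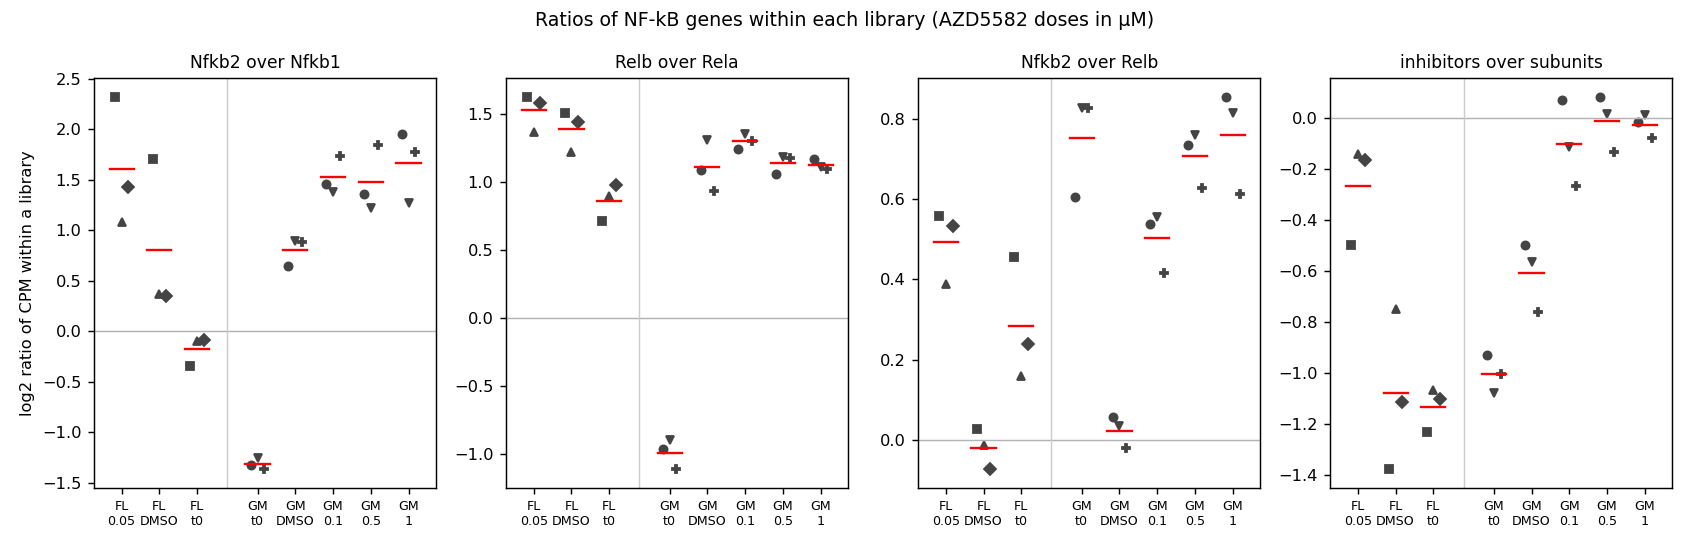
Log2 ratios of CPM within each library (y axes, whose ranges differ) for 3 pairs of genes and for summed inhibitors over summed subunits, in 3 FL and 5 GM groups (x axes; doses in µM). Points are libraries and red bars are means of 3; in the panel of Nfkb2 over Relb, the 6 DMSO libraries lie near 0 and the 12 AZD5582 libraries lie above them.

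In FL cultures 0.05 µM AZD5582 raised Nfkbia. All but Rel and Bcl3, 8 of the 10 genes, had higher values than in DMSO in each of the 3 cultures. How many of all genes did so was not counted. The cultures differed widely in DMSO, and 1 of the 10 genes was called higher and 0 lower, where 1.62% of all 15961 genes were called higher and 1.28% lower. With the culture number as a block, 3 were called higher (Nfkbia, Nfkbie and Tnfaip3), and 3.69% of all genes. At an unadjusted p under 0.05 there were 3 of the 10 without the block, and 17.5% of all genes. The median log2 change of the set was 0.65, against -0.05 over all genes. With culture 91 left out of every group, a choice made after seeing the data, 6 were called higher: Rela, Nfkb2, Nfkbia, Nfkbib, Nfkbie and Tnfaip3. In that setting 8.03% of all genes were called higher. Leaving out the DMSO library of culture 94 or any 1 library of culture 95 left 0 called, and leaving out the DMSO library of culture 91 gave 5.

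Nfkbia had 1411, 1036 and 1311 CPM with AZD5582 in cultures 91, 94 and 95, and 555, 328 and 330 CPM in DMSO. The groups did not overlap, and the log2 change was 1.63 ± 0.25 (adjusted p = 0.0208), or 1.64 ± 0.23 with the block (adjusted p = 0.0122). Tnfaip3 had 824, 378 and 516 CPM with AZD5582 and 337, 109 and 143 CPM in DMSO, a log2 change of 1.54 ± 0.44 (adjusted p = 0.108), or 1.61 ± 0.28 with the block (adjusted p = 0.0219). Within cultures 91, 94 and 95, Tnfaip3 differed by 1.29, 1.79 and 1.85 on the log2 scale. Nfkbie had 494, 215 and 311 CPM with AZD5582 and 281, 101 and 134 CPM in DMSO (0.98 ± 0.41; adjusted p = 0.261), or 1.02 ± 0.23 with the block (adjusted p = 0.0443). Nfkbib had 405, 134 and 181 CPM with AZD5582 and 234, 75.7 and 84.2 CPM in DMSO (0.86 ± 0.51; adjusted p = 0.432).

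Both non-canonical subunits were higher with AZD5582 in each culture, without passing the test. Nfkb2 had 1696, 629 and 924 CPM with AZD5582 and 1024, 266 and 381 CPM in DMSO (log2 change 0.95 ± 0.52; adjusted p = 0.391). Relb had 1152, 481 and 639 CPM with AZD5582 and 1005, 268 and 401 CPM in DMSO (0.43 ± 0.49; adjusted p = 0.699). With the block, Nfkb2 changed by 1.04 ± 0.33 and Relb by 0.52 ± 0.36 (adjusted p = 0.108 and 0.407). With culture 91 left out Nfkb2 was called (1.31 ± 0.24; adjusted p = 0.0108) and Relb was not (0.79 ± 0.22; adjusted p = 0.0501). In culture 91 both were higher in DMSO than in cultures 94 and 95 with AZD5582. Canonical subunits and Bcl3 lay closer to their DMSO values. Rel had 916, 385 and 529 CPM with AZD5582 and 1104, 238 and 371 CPM in DMSO, so that it was lower with AZD5582 in culture 91 and higher in the other two (0.09 ± 0.54; adjusted p = 0.956). Rela had 374, 186 and 214 CPM with AZD5582 and 353, 116 and 148 CPM in DMSO (0.32 ± 0.42; adjusted p = 0.746). Nfkb1 had 339, 298 and 344 CPM with AZD5582 and 313, 206 and 299 CPM in DMSO (0.26 ± 0.20; adjusted p = 0.556). Bcl3 had 39.3, 35.7 and 48.8 CPM with AZD5582 and 55.5, 36.6 and 48.2 CPM in DMSO (-0.18 ± 0.20; adjusted p = 0.689). Summed monocyte and macrophage markers were 356, 865 and 658 CPM with AZD5582, against 972, 1419 and 1656 CPM in DMSO. Of these 12 markers 4 were called lower and 1 higher. Summed neutrophil markers, given below, were also lower with AZD5582 in each culture, with 0 of 12 called. The part of these shifts in the FL results was not tested.

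In FL cultures after 24 h in DMSO, all 10 genes were higher than at t0 in cultures 91 and 95, and 9 of 10 in culture 94. The share of all genes that were higher in each culture was not counted. The median within-culture log2 difference of the 10 genes was 1.90 in culture 91, 0.33 in culture 94 and 0.65 in culture 95. Of the 10 genes, 2 were called higher (Nfkbia and Bcl3) and 0 lower, where 4.96% of all genes were called higher and 5.18% lower. With the block 4 were called higher, Rel and Tnfaip3 being added, and 9.23% of all genes. With culture 91 left out 1 was called higher, Nfkbia, and 4.39% of all genes. The call of Bcl3 was thus lost without culture 91, and leaving out any 1 library gave between 0 and 5 calls, with 5 when the DMSO library of culture 94 was left out. The median log2 change of the set was 1.15, against 0.03 over all genes.

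At t0 the 3 FL cultures lay closer together than in DMSO. Rel had 1104, 238 and 371 CPM in DMSO and 200, 172 and 173 CPM at t0 (log2 change 1.66 ± 0.55, adjusted p = 0.0874, or 1.34 ± 0.35 with the block, adjusted p = 0.0374). Tnfaip3 had 337, 109 and 143 CPM in DMSO and 81.1, 73.8 and 79.3 CPM at t0 (1.34 ± 0.43, adjusted p = 0.0827, or 1.15 ± 0.28 with the block, adjusted p = 0.0325). Neither gene's groups overlapped, and culture 91 was the highest in DMSO for both. Nfkbia had 555, 328 and 330 CPM in DMSO and 170, 196 and 204 CPM at t0 (1.09 ± 0.25; adjusted p = 0.0336). Bcl3 had 55.5, 36.6 and 48.2 CPM in DMSO and 22.6, 28.5 and 29.3 CPM at t0 (0.81 ± 0.20; adjusted p = 0.0427). Nfkb2 and Relb had 238, 224 and 250 CPM and 174, 200 and 211 CPM at t0, below all their DMSO values, with log2 changes of 1.24 ± 0.52 and 1.52 ± 0.50 (adjusted p = 0.153 and 0.0841). Nfkb1 had 313, 206 and 299 CPM in DMSO and 302, 240 and 265 CPM at t0, and the groups overlapped (0.02 ± 0.20; adjusted p = 0.949). The summed neutrophil markers differed between the cultures, at 192, 3800 and 387 CPM with AZD5582, 2153, 10166 and 4167 CPM in DMSO and 1306, 4354 and 2148 CPM at t0 in cultures 91, 94 and 95. Their part in the differences between cultures was not tested.

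**Figure D4:**
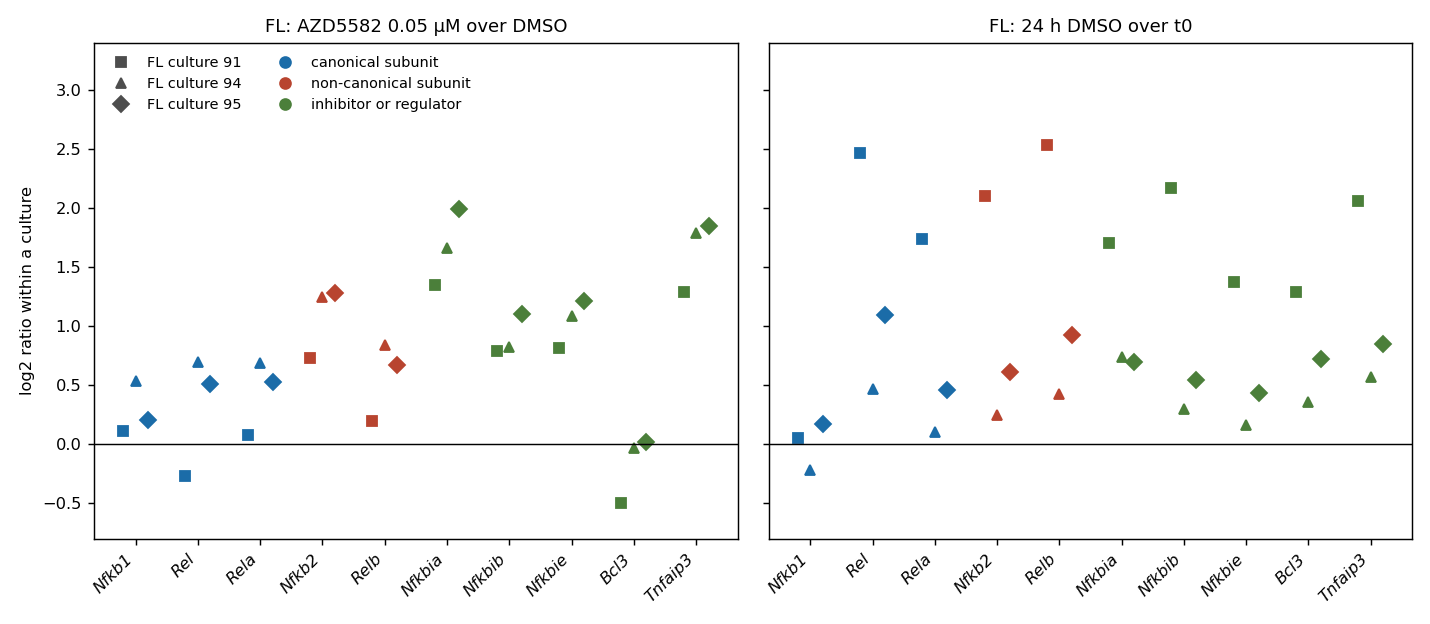
Log2 ratio of CPM within each FL culture (y axis) for each gene (x axis), for 0.05 µM AZD5582 over DMSO (left) and 24 h DMSO over t0 (right). Points are the 3 cultures, coloured by gene class; culture 91 has the largest DMSO differences for all genes but Nfkb1, and a lower AZD5582 ratio than cultures 94 and 95 for all 10 genes.

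Compared at t0, FL cultures had more of the set than GM cultures. All 10 genes were higher in every FL library than in any GM library, as were 34.1% of all genes, and 9 were called higher (all but Rela) and 0 lower, where 23.4% of all 17262 genes were called higher and 17.5% lower. The median log2 difference of the set was 1.08, against 0.09 over all genes. Relb (195 ± 19.2 CPM in FL and 44.7 ± 3.38 CPM in GM; log2 difference 2.13 ± 0.34; adjusted p = 4.84e-05), Nfkb2 (1.65 ± 0.35; adjusted p = 0.000822) and Rel (1.58 ± 0.38; adjusted p = 0.00226) differed most. Rela, at 107 ± 0.946 CPM in FL and 88.7 ± 0.309 CPM in GM, was not called (0.27 ± 0.28; adjusted p = 0.474), but with the compared groups alone it was (0.22 ± 0.07; adjusted p = 0.0253). The inhibitors differed by 0.86 to 1.13 on the log2 scale. Cell markers differed too. At t0 the summed monocyte and macrophage markers were at 923 to 1067 CPM in FL and 19549 to 25002 CPM in GM cultures. Summed neutrophil markers were at 1306 to 4354 CPM in FL and 307 to 365 CPM in GM cultures. The part of these markers in the differences between culture types was not tested.

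After 24 h in DMSO the culture types overlapped for all 10 genes, whereas 45.1% of all genes did not overlap. Of these, 1 was called higher in FL cultures (Rel, 1.25 ± 0.38; adjusted p = 0.0118) and 1 lower (Bcl3, -0.51 ± 0.17; adjusted p = 0.0179), where 20.0% of all genes were called higher and 21.4% lower. With culture 91 left out, 0 were higher and 4 were lower: Rela, Nfkbia, Bcl3 and Tnfaip3, with Rela at -0.39 ± 0.13 against 0.25 ± 0.28 with all cultures. In that setting 21.0% of all genes were called higher and 25% lower. Leaving out the DMSO library of culture 94 gave 6 calls, and leaving out replicate 1 of the GM cultures in DMSO gave 0. The median log2 difference of the set was 0.38 with all cultures, against 0.01 over all genes. Without culture 91, Nfkb2, Relb and Nfkbie also changed sign, to -0.23 ± 0.16, -0.16 ± 0.16 and -0.12 ± 0.14. Nfkb1, Rel and Nfkbib stayed above 0 in that setting (0.22 ± 0.17, 0.34 ± 0.19 and 0.05 ± 0.13). The direction of the difference thus depended on culture 91 for several genes.

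The change over 24 h in DMSO was tested for a difference between the culture types, as the FL change minus the GM change. It was smaller in FL cultures for 2 of the 10 genes and larger for 0, where 3.96% of all genes were called lower and 0.881% higher. These were Bcl3 (-1.37 ± 0.24; adjusted p = 0.00166) and Nfkbia (-0.95 ± 0.26; adjusted p = 0.0401). The call of Bcl3 held in 31 of 31 alternative settings and that of Nfkbia in 17 of 31. With the block 6 were called lower, Nfkb2, Relb, Nfkbie and Tnfaip3 being added, and with culture 91 left out 9 were, all but Nfkb1. Of all genes 7.62% were called lower with the block and 10.6% without culture 91. Nfkb1 differed by -0.19 ± 0.24 (adjusted p = 0.751). The median of the set was -0.80, against -0.12 over all genes. The AZD5582 doses of the culture types were not matched. The FL change at 0.05 µM minus the GM change at 0.1 µM was called by edgeR for 0 of the 10 genes, where 0.967% of all genes were called higher and 0.707% lower, with 0 of the 10 and 13.2% of all genes at an unadjusted p under 0.05 and a median of 0.02. DESeq2 called 0 of the 10 as well.

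**Figure D5:**
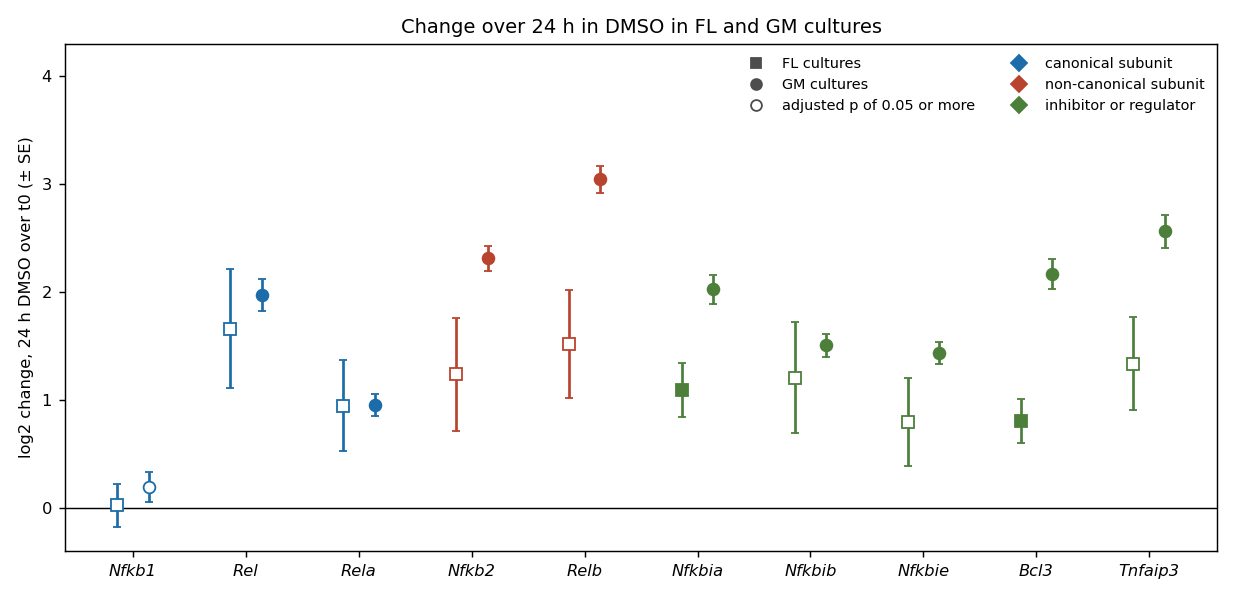
Log2 change over 24 h in DMSO relative to t0 (y axis, ± SE from each culture type's own fit) for each gene (x axis) in FL (squares) and GM (circles) cultures of 3 libraries per group, with open symbols for an adjusted p of 0.05 or more. No FL value lies above its GM value, and Rela is at 0.95 in both.

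Other genes of the pathway were counted from lists chosen with earlier results of these data known. Among 13 receptors that feed into NF-kB, 6 were called higher and 6 lower at 1 µM in GM cultures, where 26.9% of all genes were higher and 28.2% lower. Cd40, which encodes a costimulatory receptor that signals through the non-canonical branch, averaged 64.0 ± 12.6 CPM in DMSO and 255 ± 23.5, 348 ± 14.0 and 374 ± 35.1 CPM at 0.1, 0.5 and 1 µM (log2 change at 1 µM 2.66 ± 0.14; adjusted p = 3.91e-11). Tnfrsf9, which encodes the receptor 4-1BB, rose by 1.97 ± 0.24. Tlr2, which encodes a sensor of bacterial lipoproteins, and Tnfrsf1a, which encodes a TNF receptor, fell by 3.30 ± 0.17 and 1.37 ± 0.11 on the log2 scale.

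Of 23 adaptors and kinases, 12 were called higher and 4 lower at 1 µM, with a median log2 change of 0.32 against -0.01 over all genes. These are 52.2% and 17.4% of the list, against 26.9% and 28.2% of all genes. Traf3, whose product holds NIK in check, averaged 60.0 ± 4.78 CPM in DMSO and 126 ± 5.65, 133 ± 7.29 and 126 ± 20.1 CPM at the 3 doses (1.17 ± 0.10 at 1 µM; adjusted p = 2.72e-08). Traf2 and Traf6 rose by 0.92 ± 0.08 and 1.23 ± 0.12 at 1 µM, and Myd88, an adaptor of Toll-like receptors, fell by 0.84 ± 0.11. Among 20 other inhibitors and regulators, 9 were called higher (45%, against 26.9% of all genes) and 6 lower (30%, against 28.2%), with a median of 0.09. Tank, which encodes a TRAF-binding regulator, rose by 0.75 ± 0.08, and Ikbke, Pdlim2 and Tnip3 fell by 2.60 ± 0.11, 2.34 ± 0.20 and 1.45 ± 0.11. Ikbke encodes an IKK-related kinase, and Tnip3 an A20-binding protein.

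Of 28 reported NF-kB targets 25 were tested, and 21 were called higher and 3 lower at each of the 3 doses in GM cultures, and 5 higher and 0 lower at 0.05 µM in FL cultures. Of all genes 19.9%, 25.8% and 26.9% were called higher at these GM doses and 1.62% in FL cultures. At 1 µM their median log2 change was 1.47, against 1.31 for the 10 subunits and inhibitors and -0.01 for all genes. Bcl2l1, which encodes the anti-apoptotic protein BCL-XL, averaged 402 ± 51.5 CPM in FL cultures with AZD5582 and 101 ± 5.44 CPM in FL cultures in DMSO (1.99 ± 0.17; adjusted p = 0.00288). In GM cultures it averaged 457 ± 32.8 CPM at 1 µM and 71.1 ± 5.34 CPM in DMSO (2.79 ± 0.11; adjusted p = 2.98e-12). Bcl2l1 was lower in GM cultures in DMSO than at t0 (-0.62 ± 0.11; adjusted p = 0.000104), whereas 9 of the 10 set members were called higher and 0 lower. Cd86, a costimulatory ligand, rose by 2.42 ± 0.14 at 1 µM in GM cultures and by 0.98 ± 0.18 in FL cultures. Irf1, a transcription factor of the interferon response, rose by 1.61 ± 0.10 at 1 µM in GM cultures. Cxcl10, a chemokine, fell by 2.05 ± 0.23 in the same comparison.

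The genes whose profiles over the 8 group means were most like those of single members were ranked by the root mean square difference of log2 CPM after centring, among 9535 genes whose mean reached 10 CPM in 1 or more groups. For Nfkb2 these were Rcsd1, Tapbpl and Spsb1 (0.09, 0.09 and 0.10), and for Relb they were Slc22a23, Slc25a29 and Nipal1 (0.17, 0.18 and 0.19). For Nfkb1, whose level varied least, they were Tlk2, Zfp511 and Asb6 (0.05, 0.05 and 0.06). Nfkbia was most like Zfyve9, Rasal2 and Ube2l6 (0.12, 0.18 and 0.19). Within the set, the closest gene to Tnfaip3 was Nfkbia (rank 7; 0.30), and Rel was the closest to Nfkb2 (rank 32; 0.24). Relb was closest to Nfkb2 among set members (rank 34; 0.29).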

How the data were processed

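The values used were the raw read counts per gene that the authors deposited, 1 table for each of 24 libraries. Per the labels' protocols, RNA with an integrity number above 8 was made into stranded mRNA libraries (TruSeq) and sequenced on a NovaSeq6000. Reads were aligned with STAR 2.7.3a to GRCm39 and counted with HTSeq 0.12.4, and DESeq2 1.30.1 is named too, per the submitters' processing notes. The labels give neither a strand setting nor an annotation release. Without a known strand setting, Nfkb2, Nfkbib and Bcl3 are uncertain where they share exon bases with a gene on the other strand (AC114539.1 for 11.6% and Psd for 6.52% of Nfkb2, Ccer2 for 14.5% and Sirt2 for 1.94% of Nfkbib, and Gm16175 for 6.50% of Bcl3). Lines naming no gene took 10.98% to 16.4% of counted reads and were left out. Symbols came by identifier from GENCODE M21, which named 52081 of 55414 identifiers.

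Groups were compared with edgeR 4.0.16 (R 4.3.3): TMM scaling, filterByExpr and a robust quasi-likelihood fit of group means. GM comparisons were fitted on 15 libraries and 16152 genes, FL comparisons on 9 libraries and 15961 genes, and comparisons between culture types on 24 libraries and 17262 genes. P-values were adjusted by Benjamini-Hochberg over all genes of a model. The fit was tested on simulated data. CPM were scaled by TMM over all 24 libraries, and CPM per kb used the longest protein-coding transcript of each gene. Alternatives were DESeq2 1.42.0, other scaling, no filter, a non-robust spread, fewer or more libraries in the model, a replicate block and each library left out. The culture numbers pair the FL samples: same-numbered libraries deviated together in all 9 pairs of libraries (r of deviations 0.12 to 0.64). In 8 of the 9 the correlation was best with the own number, culture 95 between DMSO and AZD5582 being the exception. Block values therefore stand beside FL results where they change a call.

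The 10 genes and all lists were chosen with earlier results of these data known. Named besides them were, in each pathway list, up to 3 called genes with the smallest p at 1 µM in GM cultures and up to 1 called in the opposite direction, and the 3 genes most like each of 5 members, of which those for Tnfaip3 are not reported here.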

Additional observations from a re-analysis of the deposited data

Results flagged for a closer look

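The change over 24 h in DMSO differed between FL and GM cultures for 2 of the 10 genes, by the test of the FL change minus the GM change in the model of all 24 libraries (edgeR's quasi-likelihood test). Bcl3 differed by -1.37 ± 0.236 on the log2 scale (SE; adjusted p = 0.00166), with 55.5, 36.6 and 48.2 CPM in DMSO and 22.6, 28.5 and 29.3 CPM at t0 in FL cultures, beside 72.9, 74.9 and 52.4 CPM in DMSO and 14.9, 15.1 and 14.4 CPM at t0 in GM cultures. Nfkbia differed by -0.947 ± 0.261 (adjusted p = 0.0401), with a log2 change of 1.09 ± 0.25 in FL cultures and 2.03 ± 0.13 in GM cultures. Both genes rose in both culture types, and both rose less in FL cultures.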

How the results depend on the processing

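In GM cultures the calls against DMSO at 0.5 and 1 µM and against t0 changed by at most 1.5 times in number. At 0.1 µM, 8 genes were called in the model of GM libraries and 2 with all 24 libraries in one model (Nfkbia and Tnfaip3). Nfkb1 was added there by the compared groups only, by no filter, by the block and without replicate 2 at 1 µM (adjusted p = 0.0204, 0.0372, 0.0158 and 0.0481). For the step from 0.1 to 0.5 µM, 2 became 4 with no filter and 0 with all 24 libraries. For 0.05 µM in FL cultures, 1 became 2 with DESeq2, 0 with the compared groups only, 3 with all 24 libraries and 6 with culture 91 left out of every group. For DMSO over t0 in FL cultures, 2 became 1 with no filter, 5 with DESeq2, 0 with the compared groups only, 9 with all 24 libraries and 1 with culture 91 left out. For FL against GM cultures in DMSO, 2 became 0 with the compared groups only and 4 with culture 91 left out. In the latter setting Rela (-0.39), Nfkb2 (-0.23), Relb (-0.16) and Nfkbie (-0.12) changed sign, and of these Rela was called. For the FL change minus the GM change over 24 h, 2 became 1 with median-of-ratios scaling, with no filter or with the compared groups only, and 9 with culture 91 left out. Leaving culture 91 out was chosen after seeing the data. The cause of these differences was not tested.

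Leaving out 1 library at a time gave 7 to 9 calls at 0.1 µM, 9 to 10 at 0.5 µM, 9 at 1 µM, 0 to 3 and 0 for the 2 dose steps, and 9 for DMSO over t0 in GM cultures. It gave 0 to 5 for both FL comparisons, 7 to 9 and 0 to 6 for FL against GM at t0 and in DMSO, and 1 to 7 and 0 for the differences of changes over 24 h in DMSO and with AZD5582. Groups left with 2 libraries were assumed to vary like the other groups of the model.

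With the replicate block, FL calls were 3 with AZD5582 and 4 for DMSO over t0, and 6 genes differed in the change over 24 h between culture types. The GM numbers were not taken to pair the samples by the rule used, since 3 of 30 correlations of deviations passed 0.1. Libraries nevertheless correlated best with their own number in 28 of 30 cases, beside 8 of 9 in FL cultures. The GM numbers may thus pair the samples weakly, and block results are given for them too. The block gave 9, 10 and 9 calls at 0.1, 0.5 and 1 µM, 3 and 0 for the dose steps and 9 for DMSO over t0 in GM cultures. It called 0 genes for the difference of AZD5582 changes.

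FL cultures had a biological coefficient of variation of 0.390 (0.284 with the block), against 0.146 in GM cultures (0.126 with the block), which limits what 3 FL libraries a group can show. Depth was not limiting for these genes, since the lowest count was 885.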
